A study of Mus musculus with 2 samples.

Results

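Integrins and laminins form a receptor and ligand system of the cell surface and the matrix beneath it. Integrins are pairs of 1 alpha and 1 beta subunit that span the membrane and bind laminins, collagens, fibronectin or proteins on other cells. Laminins are secreted as trimers of 1 alpha, 1 beta and 1 gamma chain and build basement membranes. In the optic nerve such membranes line the pial surface and the blood vessels, where astrocyte endfeet anchor to them, and laminin binding to alpha 6 beta 1 integrin on oligodendrocytes is known for its part in their survival and myelination.

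The genes described here are all those whose symbol names an integrin alpha or beta subunit or a laminin alpha, beta or gamma chain. Symbols of integrin-binding proteins were left out. The rule found 38 genes among 23950 symbols, namely 18 integrin alpha genes, 9 integrin beta genes and 11 laminin genes, each with 1 entry. It used no measured value.

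RNA-seq was done on whole optic nerve of mice of mixed strain at postnatal day 12. The control group was Hdac3 f/+; Olig1-cre and the Hdac3 cKO group was Hdac3 f/f; Olig1-cre, each with 1 library. The floxed allele (f) can be deleted by Cre recombinase expressed from the Olig1 gene, which is active in oligodendrocyte lineage cells, so both groups carried Cre and the control group carried 1 deletable allele. The sources used here do not say how many animals went into a library. By its title, the study addresses the switch between oligodendrocyte and astrocyte fate and the part of Hdac3, an enzyme that removes acetyl groups from histones.

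Levels are deposited FPKM, fragments scaled by transcript length and by library total, so they can be compared between genes. Read depth is unknown, and no counting interval can be given. The difference of a gene is log2 of (cKO FPKM + 1) over (control FPKM + 1), which understates the change of genes near 1 FPKM. Genes entered the comparison with an OK status for both values and 1 FPKM or more in either library. The rule for higher or lower asked for at least 2-fold on this scale and for deposited intervals that stay apart. Each group has a single library, so there is no replicate check and no p-value, and each difference is one between libraries and not between genotypes. Hdac3 itself was at 36.4 FPKM under the control label and 38.0 FPKM under the cKO label. A whole-gene value does not show which exons were read, so the genotype labels stay unchecked and each value is given under the label of its library. The sum of FPKM was 441867 under the control and 557861 under the cKO label, of which small RNA symbols took 11.4% and 25.3%, so the scale between libraries is uncertain. Under the control label the oligodendrocyte markers included Cnp at 2187 FPKM and the astrocyte markers Slc1a3 at 288 FPKM, while the most abundant neuron markers, Tubb3 and Nefl, were at 12.7 and 11.6 FPKM.

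Every laminin gene that reached the minimum had its higher level under the cKO label, and no integrin or laminin gene was counted lower. Of the 38 genes, 30 reached the minimum, 21 of them integrins and 9 laminins. By the rule 5 of the 30 were higher, Lama2, Lamb2, Lamc3, Itga8 and Itga10, against 4.73% of all 14154 genes tested. None (0 of 30) was lower, against 4.51% of all genes tested. The median log2 difference was 0.60 over the 30 genes and 0.12 over all genes tested. It was 0.91 over the 9 laminins, all of which lay above 0, and 0.40 over the 21 integrins, of which 16 lay above 0 and 5 below. Across all genes tested, 61.4% lay above 0. The intervals of the libraries did not overlap for 24 of the 30 genes, with the cKO value above for 23 and below for 1 (Itgb8). Among all genes tested these shares were 38.4% above and 22.5% below.

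**Figure D1:**
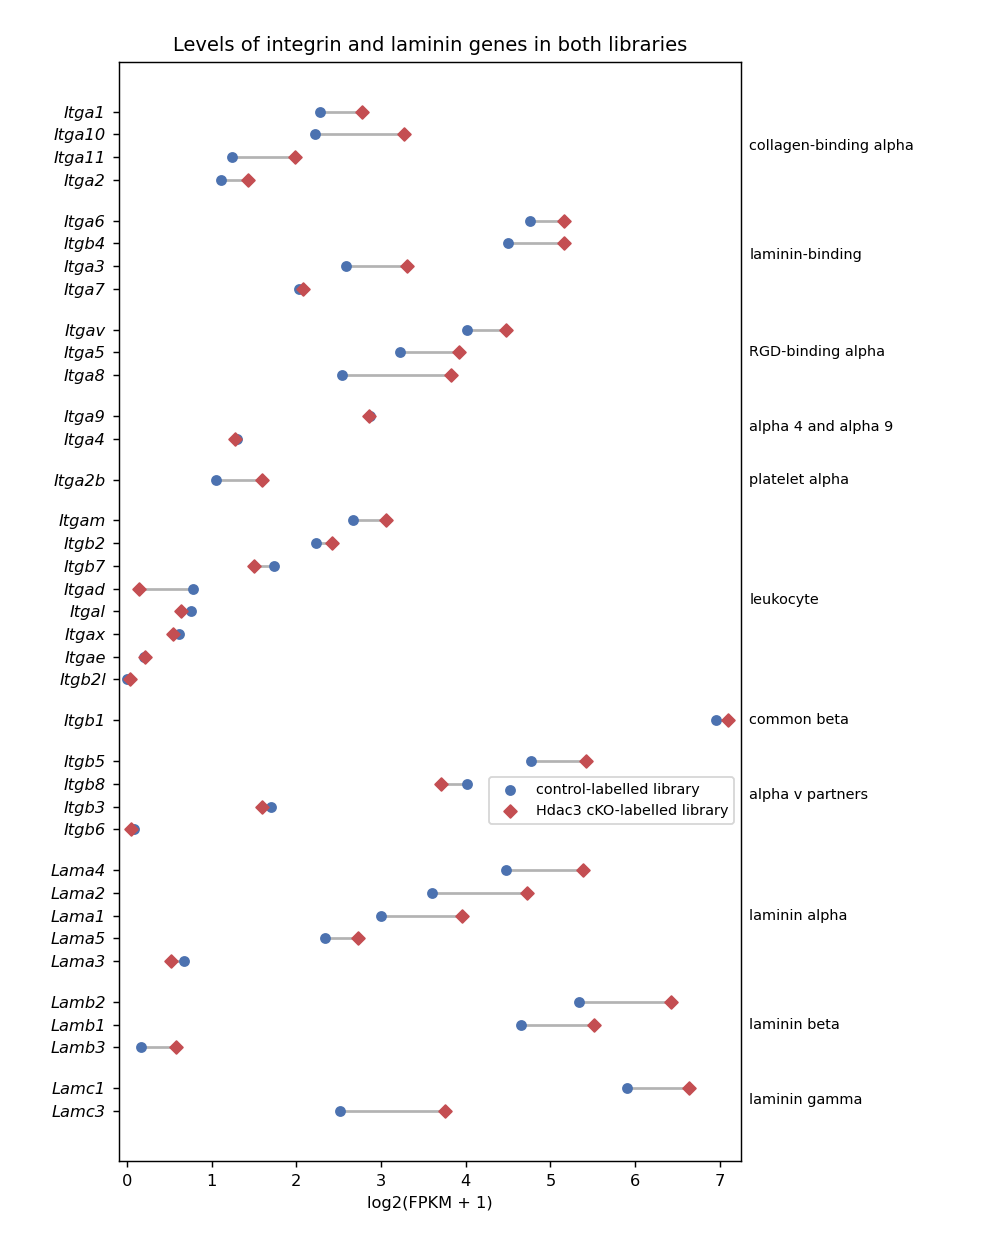
Levels of 37 of the 38 genes as log2(FPKM + 1), under the control label (circles) and under the cKO label (diamonds), grouped by subunit or ligand class. Each grey line joins the values of 1 gene; Itgb1 is the highest in both libraries, and every laminin shown except Lama3 lies further right under the cKO label.

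Among the laminin alpha chains, which carry the binding site for integrins and dystroglycan, Lama4 was the most abundant. Lama4, the alpha chain of vessel basement membranes, was at 21.2 FPKM under the control label and 40.7 FPKM under the cKO label (log2 difference 0.91). Lama2, the chain of merosin, whose loss causes a muscular dystrophy with white matter changes, was at 11.1 FPKM (deposited interval 10.6 to 11.6) and 25.4 FPKM (24.6 to 25.5). This log2 difference of 1.12 was past the rule. Lama1, a chain of early and pial basement membranes, was at 6.99 FPKM under the control label and 14.5 FPKM under the cKO label (log2 difference 0.96), just short of 2-fold on the scale with the added 1 FPKM. Lama5, a chain of mature vessel and epithelial membranes, was at 4.05 and 5.64 FPKM (log2 difference 0.39), the smallest difference among the 9 laminins. Lama3, an epithelial chain, was below the minimum at 0.597 and 0.436 FPKM. All 4 alpha chains above the minimum thus had the higher level under the cKO label, with separate intervals. As a share of the summed alpha chain level, which does not depend on the scale between libraries, Lama4 made up 48.3% and 47.0%, Lama2 25.3% and 29.3%, and Lama5 9.22% and 6.51%.

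Of the beta chains, Lamb2, a chain of vessel, synaptic and retinal basement membranes, was at 39.4 FPKM (interval 37.2 to 40.0) under the control label and 84.5 FPKM (80.8 to 83.1) under the cKO label. Its log2 difference of 1.08 was past the rule, and its cKO value lies above its own interval. Lamb1, the beta chain of most embryonic laminins, was at 24.1 and 44.7 FPKM (log2 difference 0.86). The ratio of Lamb2 to Lamb1 was 1.64 under the control label and 1.89 under the cKO label. Lamb3, the epithelial beta chain, was at 0.123 and 0.492 FPKM, below the minimum in both.

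Of the gamma chains, Lamc1, the partner in most laminin trimers, was the most abundant laminin gene, at 59.0 FPKM under the control label and 98.8 FPKM under the cKO label (log2 difference 0.74). Lamc3 was at 4.71 FPKM (interval 4.28 to 5.11) and 12.5 FPKM (11.8 to 12.7), a log2 difference of 1.24 that was past the rule. Its share of the gamma chain level was 7.23% under the control label and 10.9% under the cKO label, while that of Lamc1 was 90.5% and 86.4%. Summed over their 11 genes, the laminins stood at 172.8 FPKM under the control label and 330.7 FPKM under the cKO label, a ratio of 1.91. Alpha, beta and gamma chains made up 25.4%, 36.8% and 37.7% of that sum under the control label and 26.2%, 39.2% and 34.6% under the cKO label. The chain classes therefore kept similar proportions while their levels differed.

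**Figure D2:**
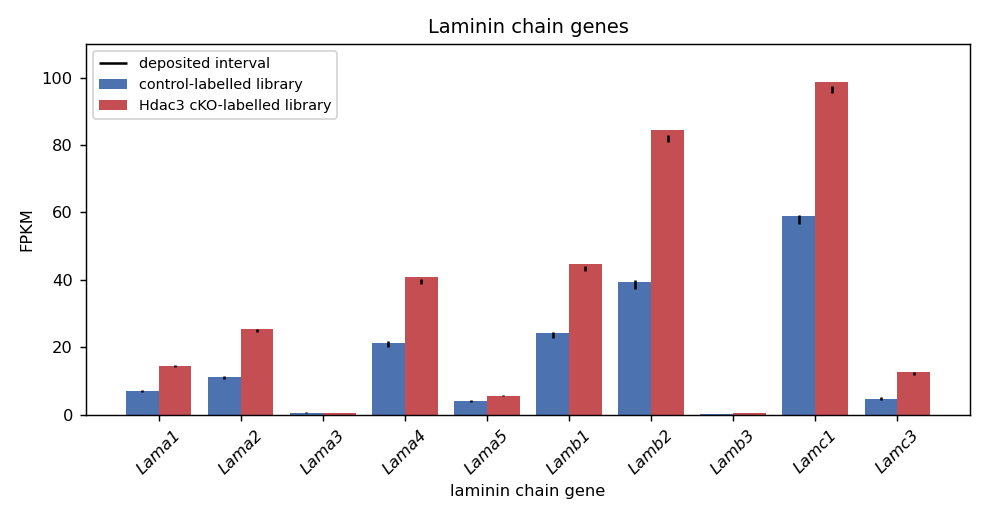
FPKM of 10 laminin chain genes under the control label (blue) and under the cKO label (red), with the deposited interval as a black line. Lamc1 reached 98.8 FPKM and Lamb2 84.5 FPKM under the cKO label, and the cKO bars of Lama4, Lamb1, Lamb2 and Lamc1 end above their own intervals.

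Integrins that bind laminin were led by Itga6, the alpha subunit of endothelial and oligodendrocyte laminin receptors, at 26.0 FPKM under the control label and 34.7 FPKM under the cKO label (log2 difference 0.40). Itgb4, which pairs with alpha 6 and anchors to intermediate filaments, was at 21.6 and 34.7 FPKM (log2 difference 0.66). Its ratio to Itga6 was 0.828 under the control label, and under the cKO label both genes stood at 34.7 FPKM. Itga3, a laminin receptor subunit of epithelia and several other cells, was at 5.01 and 8.85 FPKM (log2 difference 0.71). None of these met the 2-fold condition, although their intervals were separate. Itga7, a laminin receptor subunit of muscle, was at 3.09 and 3.24 FPKM with overlapping intervals, and the sign of its small difference changed with the scaling.

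Itgb1, the beta subunit shared by most alpha subunits, was the most abundant of all 38 genes, at 123 FPKM under the control label and 135 FPKM under the cKO label. Each value lies above its interval, 116 to 121 and 128 to 131. Its log2 difference of 0.14 is close to the median of all genes tested, and it was -0.20 after scaling the libraries to the same sum. Itgb1 made up 63.3% of the summed integrin beta level under the control label and 58.3% under the cKO label.

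Among alpha subunits that bind the RGD tripeptide, Itga8, the receptor subunit for nephronectin on mesenchymal cells, was at 4.82 FPKM (interval 4.46 to 5.18) under the control label and 13.2 FPKM (12.8 to 13.6) under the cKO label. Its log2 difference of 1.29 was the largest among the 30 genes. Itga5, the fibronectin receptor subunit, was at 8.32 and 14.1 FPKM (log2 difference 0.70). Itgav, which binds vitronectin and the latent form of TGF-beta, was at 15.1 and 21.3 FPKM (log2 difference 0.47). Itga8 alone of these 3 met the rule.

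The beta partners of Itgav differed from each other in direction. Itgb5, which forms a vitronectin receptor, was at 26.4 FPKM under the control label and 41.9 FPKM under the cKO label (log2 difference 0.65). Itgb8, the subunit with which glial cells activate latent TGF-beta, was at 15.2 FPKM (interval 13.5 to 15.9) and 12.0 FPKM (10.9 to 12.1). It was the only gene of the 30 whose interval lay lower under the cKO label, by a log2 difference of -0.31 that did not reach 2-fold. The ratio of Itgb8 to Itgb5, which is free of the scale between libraries, was 0.577 under the control label and 0.288 under the cKO label. Itgb3, a subunit of oligodendrocyte precursors, vessels and platelets, was at 2.26 and 2.03 FPKM with overlapping intervals. Itgb6, an epithelial subunit, was listed at 0.0604 and 0.0341 FPKM.

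**Figure D3:**
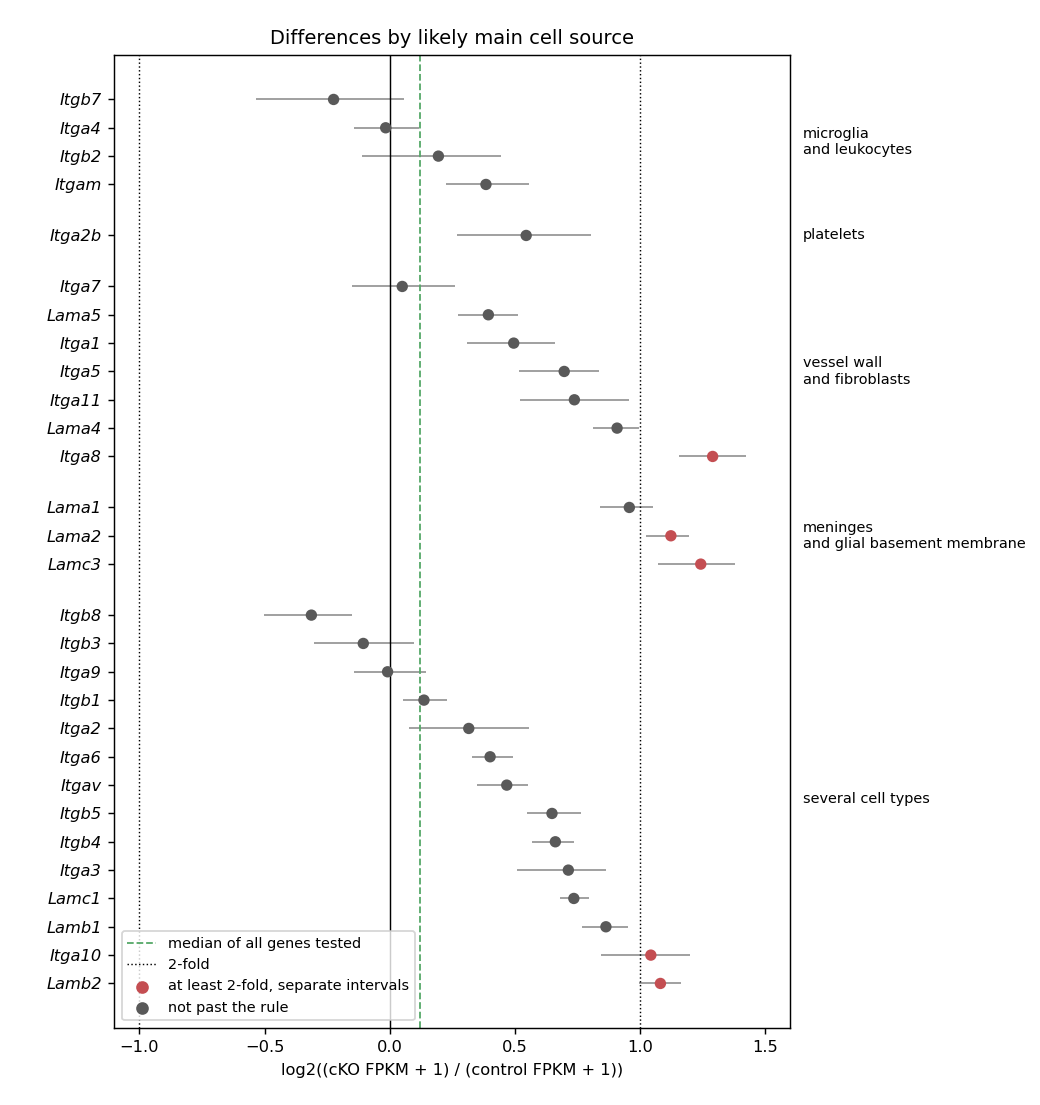
Log2 difference (cKO over control, with 1 FPKM added to each) of 29 of the 30 genes that reached 1 FPKM, grouped by likely main cell source. Bars span the range given by the deposited intervals extended to the values themselves, the dashed line marks the median of all genes tested (0.12) and dotted lines mark 2-fold; the 5 red points, from Itga10 (1.04) to Itga8 (1.29), were past the rule.

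All 4 collagen-binding alpha subunits had the higher level under the cKO label, with separate intervals. Itga10, a collagen receptor subunit best known from cartilage, was at 3.67 FPKM (interval 3.25 to 4.03) under the control label and 8.61 FPKM (8.04 to 8.76) under the cKO label, a log2 difference of 1.04 that was past the rule. Itga11, a fibroblast subunit, was at 1.37 and 2.95 FPKM (log2 difference 0.74). Itga1, a subunit of mural cells and fibroblasts, was at 3.85 and 5.83 FPKM (log2 difference 0.49), and Itga2 at 1.15 and 1.68 FPKM (log2 difference 0.32). The Itga1 locus contains the gene Pelo (6.54 and 9.04 FPKM), and the sources used here do not say whether reads of the overlap were assigned by strand. The collagen-binding subunits together made up 11.3% of the integrin alpha level under the control label and 14.4% under the cKO label.

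No integrin of leukocytes and microglia met the rule, nor did the other alpha subunits given here. Itgam, the alpha subunit of complement receptor 3 on microglia, was at 5.36 FPKM under the control label and 7.30 FPKM under the cKO label (log2 difference 0.38). Its partner Itgb2 was at 3.69 and 4.37 FPKM (log2 difference 0.19) with overlapping intervals. Itgb7, a lymphocyte homing subunit, was at 2.32 and 1.84 FPKM (log2 difference -0.22), and Itga4, which binds VCAM1, at 1.45 and 1.42 FPKM (log2 difference -0.02), both with overlapping intervals. Itga9, a receptor subunit for tenascin-C and osteopontin, was at 6.28 and 6.23 FPKM (log2 difference -0.01). Itga2b, the platelet fibrinogen receptor subunit, was at 1.08 and 2.03 FPKM (log2 difference 0.54). Of 5 platelet markers 3 stayed below 1 FPKM, Pf4 was higher, at 17.4 and 44.0 FPKM, and Gp1bb was lower, at 10.7 and 4.16 FPKM. Of 7 markers of other leukocytes with an entry, 4 reached 1 FPKM and 0 met the rule.

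The other 8 genes stayed below 1 FPKM in both libraries, with 0.722 FPKM as their highest value. They are Itgad, Itgae, Itgal, Itgax, Itgb2l, Itgb6, Lama3 and Lamb3. Itgad, a leukocyte subunit picked out on seeing its values, was at 0.722 FPKM (interval 0.557 to 0.886) under the control label and 0.102 FPKM (0.0693 to 0.136) under the cKO label. Its locus overlaps 2 other genes, and without counts its depth is unknown. Itgb2l was listed at 0 under the control label and at 0.0237 FPKM under the cKO label.

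Sorted by the cell type in which each gene is mainly known, which is background knowledge and not measured here, the genes of meninges and glial basement membranes stood highest. All 3 of them (Lama1, Lama2, Lamc3) lay above 0, with a median log2 difference of 1.12, and 2 were past the rule. All 3 are laminins, whose median over 9 genes was 0.91, against 0.40 over the 21 integrins. Source and gene family therefore cannot be told apart in this ranking. Tested laminins sorted to other sources lay between 0.39 (Lama5) and 1.08 (Lamb2). For comparison with the counts in each class, 61.4% of all genes tested lay above 0 and 4.73% were higher by the rule. All 7 genes of vessel wall and fibroblasts lay above 0 with a median of 0.70, and 1 of them (Itga8) was past the rule. Of the 14 genes used by several cell types, 11 lay above 0 with a median of 0.56, and 2 were past the rule. Of 9 genes of microglia and leukocytes, 4 reached the minimum, 2 above 0 and 2 below, with a median of 0.09. After scaling to the same sum, the median was 0.80 for meninges and glial basement membranes and 0.39 for vessel wall and fibroblasts. It was 0.24 for genes used by several cell types and -0.14 for microglia and leukocytes. In each of these classes 0 genes were then past the rule. Of the vessel wall and fibroblast genes 6 then lay above 0 and 1 (Itga7) below.

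Markers of the candidate source cells were read in the same libraries. The counts below stand beside 4.73% higher and 4.51% lower by the rule, and 61.4% above 0, over all genes tested. In whole nerve, fewer cells of a type and less RNA per cell cannot be told apart. All 7 meningeal fibroblast markers lay above 0 and 6 were past the rule, with a summed level of 1813 FPKM under the control label and 4272 FPKM under the cKO label; Igf2 was at 679 and 1665 FPKM. Of 7 mural cell markers 1 was higher (sum 102.5 and 151.3 FPKM), and of 7 endothelial markers 0 (sum 133.8 and 165.9 FPKM). Of 7 astrocyte markers 2 were higher (sum 1076 and 1823 FPKM), and of 8 microglia markers 0 (sum 297.3 and 480.9 FPKM). Above 0 lay 6 mural cell, 7 endothelial, 6 astrocyte and 6 microglia markers, and below 0 lay 1, 0, 1 and 2 in the same order. All 6 oligodendrocyte markers were lower (sum 12153 and 1806 FPKM). Of 5 genes listed as precursor markers 3 were lower, Gpr17, Neu4 and Sox10. This list does not separate precursors from later cells of the lineage. Pdgfra, at 35.4 and 38.8 FPKM, and Cspg4, at 9.93 and 6.93 FPKM, did not meet the rule. Cspg4 is also in the mural cell list, where it is the marker below 0. All 5 are named, beyond the 2 most abundant, because their calls differed. Of 6 epithelial markers, 1 was higher (Cdh1, 13.3 and 34.5 FPKM) and 1 lower (Epcam, 4.78 and 0.727 FPKM). The other 4, all keratins, were below 1 FPKM in both libraries. Of 7 Schwann cell markers, 2 were below 1 FPKM in both, 0 were higher and 1 was lower (Mal, 558 and 84.6 FPKM, which oligodendrocytes also express), and Pmp22 was at 95.6 and 167 FPKM (log2 difference 0.80). Of 5 neuron markers, 1 was higher (Nefl, 11.6 and 29.5 FPKM) and 0 lower, and Tubb3 was at 12.7 and 6.24 FPKM (log2 difference -0.92). No marker list was at 0 throughout. The part of any of these cell types in the integrin and laminin differences was not tested.

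The lists of genes that act with integrins and laminins held calls in both directions. Of all genes tested 4.51% were lower and 4.73% higher by the rule. In a list of 11 basement membrane partners all lay above 0, with a median log2 difference of 0.69, 1 was higher by the rule and 0 lower. Ntn4, a netrin that binds laminin gamma chains, was at 2.30 FPKM under the control label and 5.84 FPKM under the cKO label. Nid1, which links laminin to collagen IV, was at 81.7 and 137 FPKM (log2 difference 0.74), and Col4a1, the network collagen of basement membranes, at 76.9 and 118 FPKM (log2 difference 0.61). Of 14 other integrin ligands 5 were higher and 1 was lower, and their median log2 difference was 0.63. Fn1 (fibronectin) was at 144.0 and 319 FPKM, Vtn (vitronectin) at 160.0 and 312 FPKM, Spp1 (osteopontin) at 12.7 and 30.1 FPKM, Thbs1 and Thbs2 (thrombospondins) at 4.59 and 12.6 FPKM and at 11.6 and 27.1 FPKM, and Ctgf, a matricellular protein, at 51.7 and 124 FPKM. Of these Vtn did not meet the rule (log2 difference 0.96). Edil3, a secreted RGD protein, was lower, at 7.50 and 0.657 FPKM (log2 difference -2.36).

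Among partners inside the cell, all 5 genes past the rule were lower, where 4.51% of all genes tested were lower and 4.73% higher. Of 16 tested genes for integrin activators and cytoskeletal linkers 2 were lower and 0 higher, with a median log2 difference of 0.29. Parvb (beta-parvin) was at 104.9 FPKM under the control label and 32.2 FPKM under the cKO label (log2 difference -1.68), and Lims2 (PINCH2) at 49.4 and 16.8 FPKM (log2 difference -1.50). Their family members Parva, at 24.9 and 50.1 FPKM (log2 difference 0.98, just short of 2-fold), and Lims1, at 19.1 and 21.1 FPKM, lay above 0 without meeting the rule. Ilk, the kinase-like protein that binds all 4, was at 122 and 109.0 FPKM. Parva, Lims1 and Ilk are set beside the called genes because they belong to the same complex. Of 13 kinases and adaptors 3 were lower and 0 were higher, and their median log2 difference was 0.13. Of these 13 genes 9 lay above 0 and 4 below. Fyn, the Src family kinase of myelinating oligodendrocytes, was at 189 and 56.6 FPKM (log2 difference -1.72), Rap1a, a small GTPase that activates integrins, at 102.0 and 33.0 FPKM (log2 difference -1.60), and Bcar1 (p130Cas) at 43.5 and 21.1 FPKM (log2 difference -1.01). Rap1b and Nedd9, named as family members of Rap1a and Bcar1, were at 47.6 and 69.0 FPKM and at 6.81 and 13.1 FPKM. They lay above 0 without meeting the rule (log2 differences 0.53 and 0.85). Of 11 tested laminin receptors outside the integrins and genes of the dystroglycan complex 0 met the rule in either direction, with a median of 0.37. Rpsa was at 425 and 384 FPKM, and Dag1 (dystroglycan) at 57.7 and 83.6 FPKM (log2 difference 0.53). Across the 65 tested genes of these lists 6 were lower and 6 higher, against 4.51% and 4.73% of all genes tested. Their median log2 difference was 0.37. With both FPKM sums made equal, Ntn4, Fn1, Spp1, Thbs1, Thbs2 and Ctgf were no longer past the rule, while the 6 lower genes were.

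**Figure D4:**
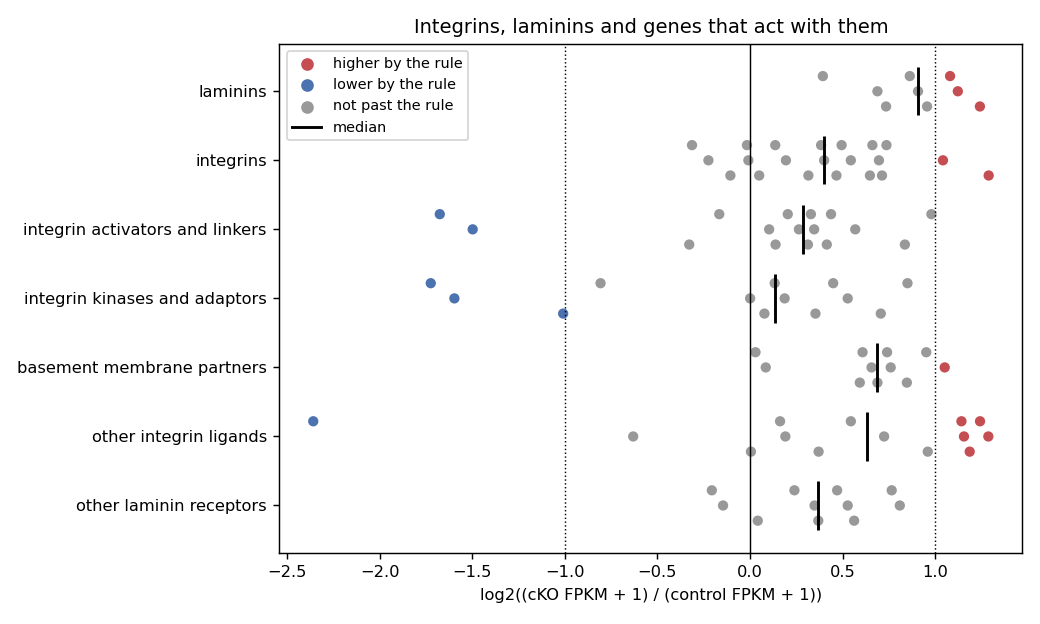
Log2 difference (cKO over control, with 1 FPKM added to each) of the laminins, the integrins and 5 lists of genes that act with them, 1 point per gene and a black bar at each median. The 6 blue points, lower by the rule, fall in the lists of linkers, kinases and ligands, and the laminin median (0.91) lies furthest right.

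Promoter windows are shown for genes that were past the rule, beside that of Itgb1, the abundant gene that differed little. RefSeq promoters (GRCm38.p6, a later build than the mm9 of the deposited loci) matched 24 of the 38 symbols. Only bases before the RefSeq start and outside GENCODE exons are printed, 5′ to 3′ on the gene's strand, with capitals marking a GC box (GGGCGG on either strand), the binding motif of Sp1 type factors. The printed stretches are those of Itga10 (chr3:96645367-96645583, plus strand), Lama2 (chr10:27616943-27617192, minus strand), Lamb2 (chr9:108479612-108479735, plus strand) and Itgb1 (chr8:128685404-128685653, plus strand). That of Lamb2 ends 126 bases before its start, so the bases next to the start are missing, while the others reach the start.
Itga10: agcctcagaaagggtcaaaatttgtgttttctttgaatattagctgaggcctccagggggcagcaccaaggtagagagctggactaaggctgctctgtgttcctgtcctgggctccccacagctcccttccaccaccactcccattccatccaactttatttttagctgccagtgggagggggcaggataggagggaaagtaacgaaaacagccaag
Lama2: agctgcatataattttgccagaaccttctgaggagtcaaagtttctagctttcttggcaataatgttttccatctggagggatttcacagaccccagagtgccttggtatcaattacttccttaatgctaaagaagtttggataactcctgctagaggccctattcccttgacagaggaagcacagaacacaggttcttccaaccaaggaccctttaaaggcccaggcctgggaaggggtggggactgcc
Lamb2: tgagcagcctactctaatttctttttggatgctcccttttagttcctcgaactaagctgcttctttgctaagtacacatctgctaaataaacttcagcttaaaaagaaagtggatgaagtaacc
Itgb1: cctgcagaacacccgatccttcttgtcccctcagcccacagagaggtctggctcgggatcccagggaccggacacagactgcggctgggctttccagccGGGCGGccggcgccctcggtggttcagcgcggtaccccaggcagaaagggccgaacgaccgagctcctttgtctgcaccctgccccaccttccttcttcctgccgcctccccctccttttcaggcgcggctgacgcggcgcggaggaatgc
In the 250 bases before the start, a GC box was found in 8 of the 24 matched genes, among them Itgb1, Itgb5 and Lamb1, and in 32.9% of all 27025 promoters of that length. It was found in 0 of the 4 matched genes past the rule (Itga8, Itga10, Lama2, Lamb2). A CCAAT box (CCAAT) was found in 3 of the 24 and in 34.5% of all promoters, a TATA box (TATAAA) in 0 and in 13.0%, and an AP-1 site (TGACTCA) in 1 and in 4.43%, each searched on both strands. No motif of the 4 contains another. The dinucleotide CG was counted in the full 250 bases, which for Lamb2 and Itga10 include exon bases that are not printed. It occurred 21 times for Itgb1, 18 times for Itga8, 3 times for Lamb2, 2 times for Itga10 and 0 times for Lama2. The median over all promoters was 6. The genes past the rule thus differed widely in this count. The Itga8 window lies wholly in GENCODE exons and is not printed, and Lamc3 had no match.

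The deposited loci (mm9, as the files give them) place Lama2 at chr10:26701091-27336748, Lamb2 at chr9:108382192-108392861, Lamc3 at chr2:31742800-31802055, Itga8 at chr2:12028286-12223547 and Itga10 at chr3:96449506-96468442. Each spans the whole gene. Of these Itga8 alone overlaps another entry of the tables, E030013I19Rik, at 0.183 and 0.410 FPKM.

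The number of genes past the rule depended on the scale between libraries, while all 9 laminins lay above 0 under each scaling tried. The laminin median was 0.91 on the deposited scale. It was 0.83 with both upper quartiles made equal, 0.79 with the overall median set to 0, and 0.58 with both FPKM sums made equal. With equal upper quartiles 4 genes were higher (3.75% of all genes tested), without Itga10, and with the overall median set to 0 there were 3 (3.10% of all), Itga8, Lama2 and Lamc3. With equal sums 0 of the 30 genes was higher (1.52% of all) and 0 lower (6.78% of all). Itga8 was then at 0.98, Lamc3 at 0.93, Lama2 at 0.80, and Lamb2 and Itga10 at 0.75, where the median of all genes tested was -0.16. Leaving small RNA symbols out of the sums gave 3 higher genes (3.61% of all). With a pseudocount of 5 FPKM only Lamb2 was higher (1.99% of all), at a log2 difference of 1.01. At 1.5-fold 15 genes were higher (16.0% of all), 8 of them laminins. With a pseudocount of 0.1 FPKM and no minimum, over all 38 genes, 8 were higher (6.08% of all) and 1 lower (4.07% of all).

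**Figure D5:**
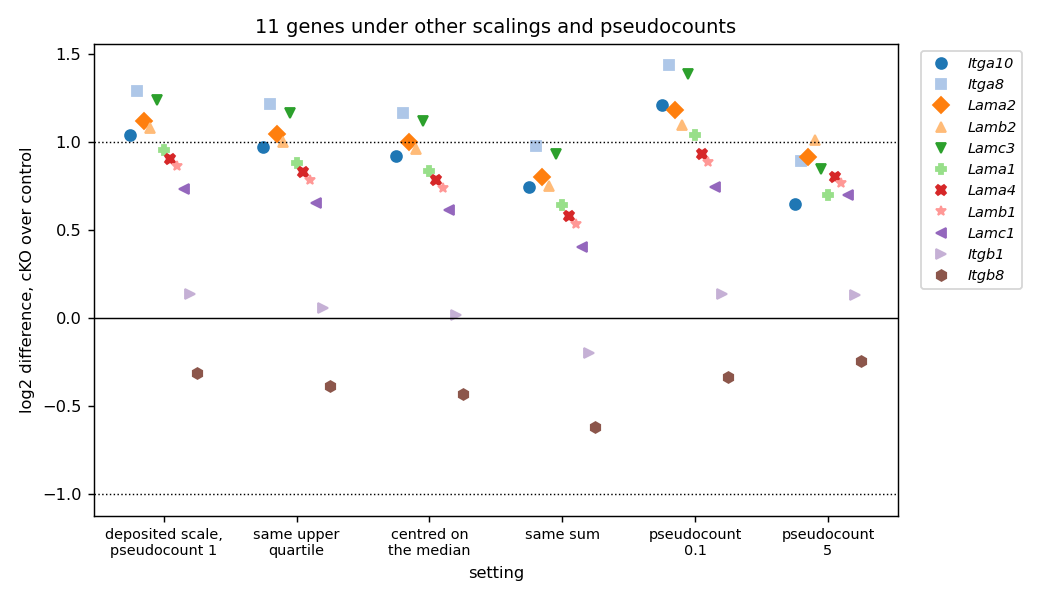
Log2 difference (cKO over control) of 11 genes under 3 other scalings and 2 other pseudocounts beside the deposited scale, with dotted lines at 2-fold. The genes past the rule on the deposited scale fall below the upper dotted line after scaling to the same sum, Itgb1 changes sign there, and Itgb8 stays below 0 in each setting shown.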

How the data were processed

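Each library's table, as deposited by the authors, holds FPKM per gene with interval bounds and a status, per the file headers. Alignment and quantification rest on TopHat and Cufflinks after CASAVA, with mm9 as build, according to the submitters' processing notes. Libraries came from Trizol RNA and the TruSeq RNA kit, per the labels' protocols. Tool versions, annotation, normalisation and numbers of reads: not given in the sources used here.

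Tables of 24460 entries were joined by symbol, start site group and locus in Python 3.11.15 (numpy 2.4.6, pandas 2.3.3). A symbol with several entries kept the one of highest summed FPKM. A pseudocount of 1 FPKM, a minimum of 1 FPKM and a 2-fold rule with separate intervals were used. The calling step was run on simulated data with planted changes larger than 2-fold and with intervals centred on the values. This checks the code only, because many deposited intervals are not centred in that way. Deposited intervals excluded the value of 1 of the 30 genes under the control label and 5 under the cKO label. Over all genes tested these shares were 15.2% and 32.1%.

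The genes, lists and settings were chosen with earlier results of these data known. Members of at least 1 FPKM are named, except 1 that enters the counts and medians and is not reported here by name; of each pathway list, the genes past the rule and the 2 most abundant, and of marker lists at most the 2 most abundant, with exceptions identified in the text. Pseudocounts, minimum levels, scalings, the interval condition, the fold and the merging of entries were varied.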

Additional observations from a re-analysis of the deposited data

How the results depend on the processing

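The count of genes higher by the rule, 5 of 30 on the deposited scale, was 1 with a pseudocount of 5, 3 with the overall median set to 0, 0 with equal FPKM sums and 15 at 1.5-fold (16.0% of all genes tested). Chosen after seeing the data, equal sums without small RNA symbols gave 3, and a pseudocount of 0.1 with no minimum gave 8 higher and 1 lower (Itgad, log2 difference -2.03). The count of genes lower by the rule was 0 in the other 11 of the 12 settings. The median log2 difference of 0.60 was 0.34 with a pseudocount of 5, 0.40 with no minimum, 0.70 with a minimum of 5 FPKM, 0.48 with the overall median set to 0 and 0.33 with equal FPKM sums. Of the 12 settings, the call was kept in 10 for Itga8, Lama2 and Lamc3, in 9 for Lamb2 and in 7 for Itga10. Among genes that act with them, Parvb, Lims2, Fyn, Rap1a and Edil3 kept their call in all 12, and Ntn4 lost it in 5. The sign changed for Itga7 in 3 scalings and for Itgb1 and Itgb2 with equal FPKM sums. No paired analysis was possible because each group has 1 library. For the same reason no library could be left out.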

Other observations

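Itgbl1, a secreted protein with integrin beta type repeats but no subunit of a receptor, fell outside the name rule and was picked out after its values were seen. It was at 7.33 FPKM (interval 6.18 to 7.87) under the control label and 24.0 FPKM (21.4 to 23.1) under the cKO label, a log2 difference of 1.58, and its cKO value lies above its own interval.

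The locus of Lama5 contains Mir7005, which was listed at 0 under the control label and at 90.5 FPKM under the cKO label. Such values of very short transcripts are uncertain, and they enter the sum of FPKM that 1 of the scalings uses.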
